A study of Rattus norvegicus with 6 samples.

Results

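The genes described here are 10 members of the NF-kB system: the factor genes Nfkb1, Rela, Nfkb2 and Relb, the feedback genes Nfkbia, Tnfaip3, Birc3 and Traf1, and the adhesion targets Vcam1 and Icam1. They were chosen by symbol, with earlier results of these data known. Each symbol stood on 1 row of the deposited count tables, so they are 10 of 30945 genes listed. The libraries were made from total RNA of primary vascular smooth muscle cells of the rat. Cells of 3 libraries carried the label Negative_control, and cells of the other 3 carried siRNA_ANK, a small interfering RNA against ANK. The strain and age of the animals, the dose and duration of the siRNA and the sequence of the control are not stated in the labels. The 3 libraries labelled Negative_control are called the controls below. Separate animals or cultures are not named for the replicates, so p-values measure the spread between these libraries, which may be technical.

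NF-kB factors are dimers that sit in the cytoplasm until a signal frees them to enter the nucleus. In the canonical branch the IkB proteins hold back dimers of RelA and p50, the product of Nfkb1, and cytokine or Toll-like receptors release them through the IKK kinases. In the alternative branch the kinase NIK drives the processing of p100, the product of Nfkb2, to p52, which pairs with RelB. Freed dimers switch on their own inhibitors, so that the response ends, and in the vessel wall they switch on the adhesion molecules VCAM-1 and ICAM-1, which bind leukocyte integrins.

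Several of these genes are textbook targets of NF-kB, so the stretch around their start sites is shown. RefSeq promoters (build GRCr8, 250 bases before to 50 bases after the start) were matched by symbol for 8 of the 10 genes; Relb and Birc3 had no entry. They were searched on both strands for the kappaB consensus, the 10-base site that NF-kB dimers bind. A match stood in 5 of these 8 promoters, and in 1400 of all 33469 promoters of the table (4.18%). A shorter run, GGAAATTCC, was searched on both strands after the sequences had been read; it stood in 3 of the 8 and in 0.332% of all promoters, and in Nfkb1 and Nfkbia it lies within the consensus match. Both shares among the 8 are descriptions only. The genes were listed as NF-kB factors, feedback genes and targets, and the shorter run was chosen after these sequences had been read. The sequences with a match of either kind follow in the direction of transcription, with matches in capitals.
Vcam1, chr2:206742734-206743033, minus strand: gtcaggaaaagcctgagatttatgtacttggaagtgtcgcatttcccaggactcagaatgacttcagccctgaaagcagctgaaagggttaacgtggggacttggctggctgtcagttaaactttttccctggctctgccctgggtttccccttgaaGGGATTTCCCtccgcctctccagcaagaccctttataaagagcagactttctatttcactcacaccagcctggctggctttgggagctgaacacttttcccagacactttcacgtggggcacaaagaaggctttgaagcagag
Icam1, chr8:27829595-27829894, plus strand: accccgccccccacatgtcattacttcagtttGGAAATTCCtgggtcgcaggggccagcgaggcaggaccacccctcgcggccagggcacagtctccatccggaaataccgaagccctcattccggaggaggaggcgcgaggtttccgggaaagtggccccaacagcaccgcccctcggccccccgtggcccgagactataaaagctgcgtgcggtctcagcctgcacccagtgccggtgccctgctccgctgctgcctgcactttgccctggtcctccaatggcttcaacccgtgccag
Nfkbia, chr6:78597023-78597322, minus strand: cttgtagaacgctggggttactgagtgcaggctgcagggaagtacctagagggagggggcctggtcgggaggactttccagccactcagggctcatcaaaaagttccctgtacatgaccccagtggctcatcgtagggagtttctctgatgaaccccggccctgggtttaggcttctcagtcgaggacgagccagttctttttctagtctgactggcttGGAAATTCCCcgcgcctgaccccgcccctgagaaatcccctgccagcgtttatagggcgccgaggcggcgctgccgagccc
Tnfaip3, chr1:15543930-15544229, minus strand: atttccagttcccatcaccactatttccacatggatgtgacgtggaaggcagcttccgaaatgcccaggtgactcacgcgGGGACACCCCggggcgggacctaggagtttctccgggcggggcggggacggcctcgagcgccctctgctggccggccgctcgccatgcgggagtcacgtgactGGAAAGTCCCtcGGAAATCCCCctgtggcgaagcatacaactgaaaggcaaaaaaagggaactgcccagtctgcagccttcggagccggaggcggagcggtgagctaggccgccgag
Nfkb1, chr2:226805413-226805712, minus strand: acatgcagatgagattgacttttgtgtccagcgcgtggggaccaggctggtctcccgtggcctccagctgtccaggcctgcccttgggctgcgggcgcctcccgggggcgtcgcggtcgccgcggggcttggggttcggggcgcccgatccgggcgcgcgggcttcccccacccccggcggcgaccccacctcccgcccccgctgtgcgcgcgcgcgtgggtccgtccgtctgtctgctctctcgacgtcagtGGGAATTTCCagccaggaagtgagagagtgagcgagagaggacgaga
Nfkb2, chr1:255108124-255108423, plus strand: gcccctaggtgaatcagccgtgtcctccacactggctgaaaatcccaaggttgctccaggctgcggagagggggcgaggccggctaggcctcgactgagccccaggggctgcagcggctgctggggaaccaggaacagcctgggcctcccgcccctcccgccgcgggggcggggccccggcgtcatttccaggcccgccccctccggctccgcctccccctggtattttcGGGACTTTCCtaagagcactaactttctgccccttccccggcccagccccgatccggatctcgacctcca

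The Tnfaip3 promoter held 3 consensus matches, GGGACACCCC from base -170, GGAAAGTCCC from base -67 and GGAAATCCCC from base -55, counted from the start site. Vcam1 held GGGATTTCCC from base -93, Nfkbia held GGAAATTCCC from base -31, Nfkb2 held GGGACTTTCC from base -20 and Nfkb1 held GGGAATTTCC from base 4. Icam1 had no consensus match in this window and 1 copy of the shorter run, from base -218. Neither was present in the windows of Rela and Traf1. Only 1 start site per gene was searched, and other start sites were not. For Traf1 it was base 38635770, inside a minus-strand gene record that begins at 38639641. For Nfkb2 it was base 255108374, inside a plus-strand record that begins at 255106010. The records of Nfkb1, Nfkbia, Tnfaip3 and Icam1 also begin before the start site used. A match is a run of letters and was not measured as a binding site in these cells.

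The siRNA_ANK libraries had less RNA of the targeted gene Ankh, which encodes the pyrophosphate transport protein ANK. Ankh stood at 338, 351 and 367 CPM (counts scaled for library size by TMM) in control replicates 1, 2 and 3, against 84.9, 76.7 and 120 CPM in siRNA_ANK replicates 1, 2 and 3 (log2 fold change -1.91 ± 0.16, SE, n = 3 per group, edgeR adjusted p = 0.000180). Libraries held 15641259 to 17441548 counts. Of 13016 genes tested with edgeR's quasi-likelihood test at a Benjamini-Hochberg adjusted p under 0.05, 40.1% were called, 19.9% higher and 20.2% lower in siRNA_ANK, and 51.1% had no overlap between control and siRNA_ANK values. All 10 smooth muscle markers were tested, 9 of them higher and none lower, with summed levels of 2728 to 3798 CPM in the controls and 5415 to 6519 CPM in siRNA_ANK; Acta2 and Tagln were the most abundant of them. The endothelial genes Cdh5, Tie1, Emcn and Kdr and the leukocyte genes Ptprc, Itgam, Adgre1 and Cd3e were listed at 0 counts in every library. Junb, an early-response gene that many cell types express, was also listed at 0 throughout, and whether each row at 0 collects reads was not tested.

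Each of the 10 genes passed the filter on low counts, Traf1 only through its siRNA_ANK libraries. In siRNA_ANK, 6 of them rose, none fell and 4 were not called, against the 19.9% of all genes tested that were higher and the 20.2% that were lower. Because the 10 genes were chosen with earlier results of these data known, this comparison is a description and not a test. At an unadjusted p under 0.05 edgeR also gave 0 lower, as did DESeq2 and limma-voom at an adjusted p under 0.05. The 6 that rose were Vcam1, Icam1, Tnfaip3, Nfkbia, Nfkb1 and Rela. Their groups did not overlap, which is near the background of 51.1% of all genes tested. The median log2 fold change of the 10 was 0.23, beside 0.01 over all genes tested. Rela had the smallest of these rises, and its call depended on single libraries, as given below.

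**Figure D1:**
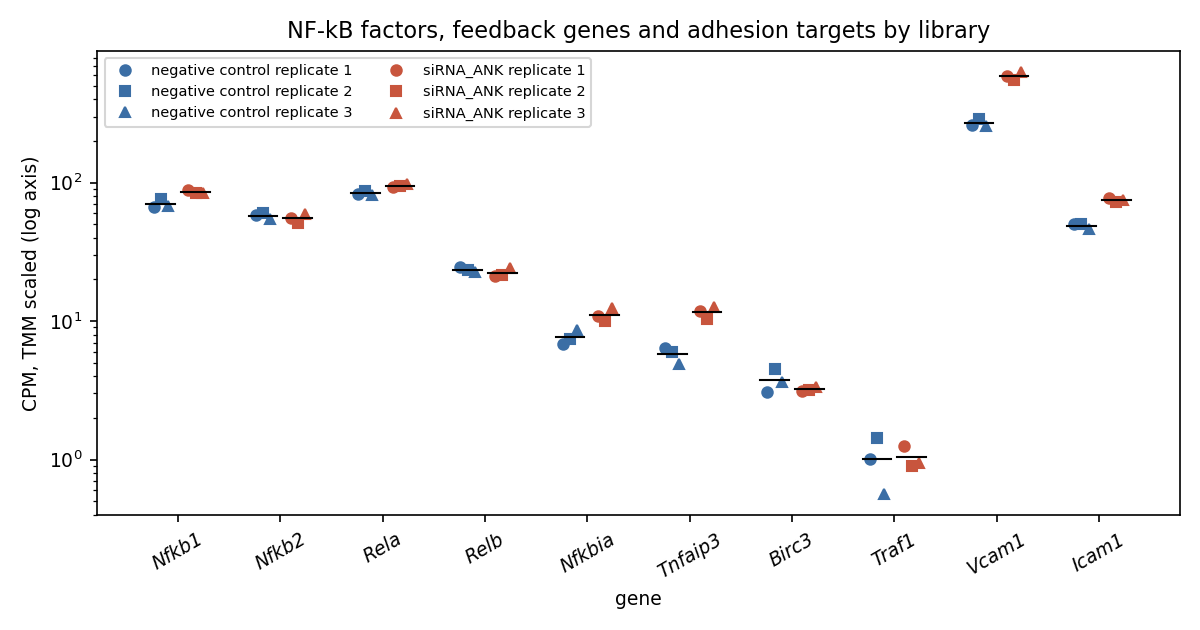
Level of each gene in the 6 libraries in CPM, on a log axis; points are libraries, with a shape for each replicate number, and black lines are group means. All siRNA_ANK values of Vcam1, Icam1, Tnfaip3, Nfkbia, Nfkb1 and Rela lie above the control values, while those of Nfkb2, Relb, Birc3 and Traf1 overlap them.

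Among the factors, the canonical pair rose slightly. Nfkb1 (ENSRNOG00000023258, chromosome 2, 224016214 to 224110404 on the minus strand of mRatBN7.2) encodes p105, the precursor of p50. It measured 66.3, 76.1 and 68.1 CPM across the controls, against 87.8, 84.4 and 83.7 CPM in siRNA_ANK. The lowest siRNA_ANK library was above the highest control, control replicate 2. On average Nfkb1 went from 70.2 ± 5.24 to 85.3 ± 2.18 CPM (SD, n = 3), 1.22-fold higher; its log2 fold change was 0.28 ± 0.06 (SE; adjusted p = 0.00301 by edgeR).

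Rela (ENSRNOG00000030888, chromosome 1, 202924945 to 202935484, plus strand) encodes the transactivating subunit p65. Its values were 82.6, 87.2 and 82.0 CPM across the controls, against 92.5, 94.4 and 97.8 CPM in siRNA_ANK. The groups were separate by a narrow margin, with means of 83.9 ± 2.85 and 94.9 ± 2.69 CPM (SD, n = 3). The log2 fold change was 0.18 ± 0.06 (SE, edgeR adjusted p = 0.0219). Rela missed the threshold when control replicate 1 or 3 was left out (edgeR adjusted p = 0.102 and 0.0965) and in DESeq2 (adjusted p = 0.0559).

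The factors of the alternative branch were not called. Nfkb2 (ENSRNOG00000019311, chromosome 1, 245165950 to 245173213, plus strand) encodes p100, the precursor of p52. It measured 58.3, 60.0 and 54.9 CPM across the controls, against 55.6, 50.7 and 59.0 CPM in siRNA_ANK, and the groups overlapped. The log2 fold change was -0.07 with a 95% interval from -0.22 to 0.08 (edgeR adjusted p = 0.488). Relb (ENSRNOG00000033235, chromosome 1, 79257725 to 79285507, minus strand), the partner of p52, measured 24.4, 23.6 and 22.6 CPM across the controls, against 21.2, 21.4 and 24.2 CPM in siRNA_ANK. Here too the groups overlapped, and the log2 fold change was -0.08 with an interval from -0.26 to 0.11 (edgeR adjusted p = 0.508).

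**Figure D2:**
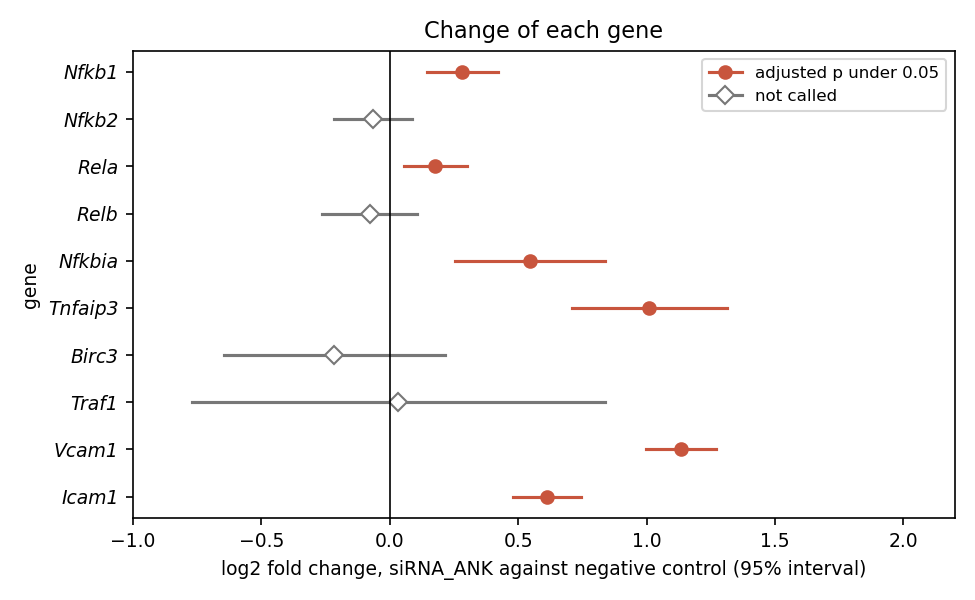
Log2 fold change of each gene in siRNA_ANK against negative control with its 95% interval (3 libraries per group, edgeR); filled circles passed an adjusted p of 0.05 and open diamonds did not. Vcam1 (1.13) and Tnfaip3 (1.01) lie farthest to the right, and the interval of Traf1 is the widest.

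RNA of the alternative factors was set against RNA of the canonical ones by ratios within a library, per kilobase of gene length. Such ratios do not depend on library scaling. Processing of p100 and the activity of the branches were not measured. The ratio of Nfkb2 to Nfkb1 was 1.34, 1.205 and 1.23 in the controls and 0.969, 0.919 and 1.08 in siRNA_ANK. All siRNA_ANK ratios were below all control ratios, with means of 1.26 ± 0.0741 and 0.988 ± 0.0811 (SD, n = 3). The ratio of Relb to Rela was 0.392, 0.359 and 0.365 in the controls and 0.304, 0.301 and 0.329 in siRNA_ANK. These did not overlap either, with means of 0.372 ± 0.0179 and 0.311 ± 0.0154. The ratios are descriptions with no test. Among single genes tested, 51.1% had no overlap between the groups, and the share for ratios of other gene pairs was not measured.

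**Figure D3:**
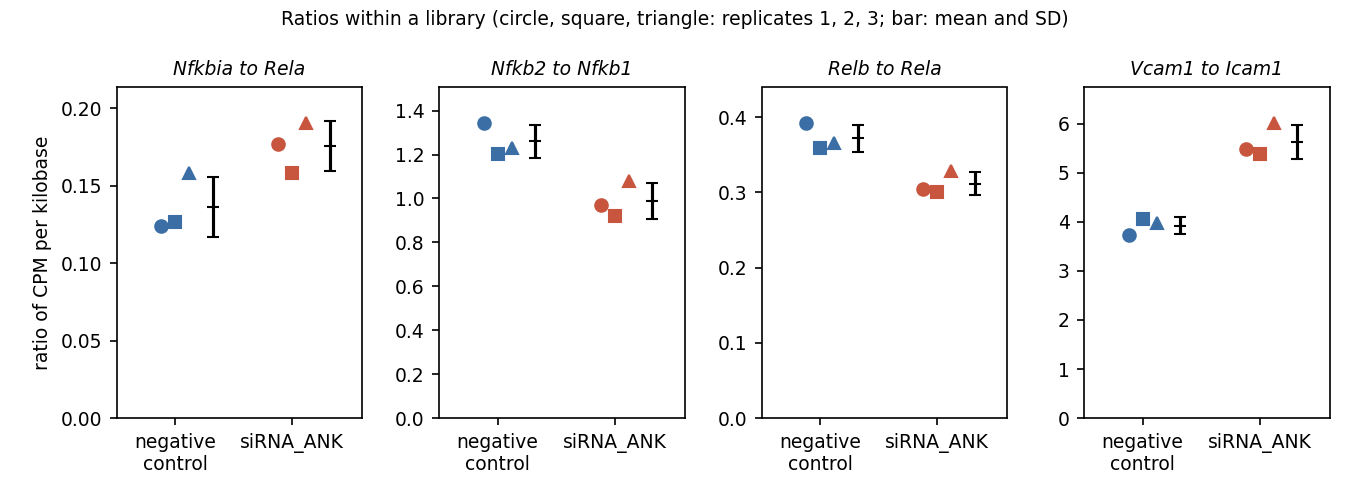
Ratios of CPM per kilobase between 2 genes of the same library, by group; points are libraries and black bars are the mean and SD of 3. Nfkb2 to Nfkb1 and Relb to Rela are lower in siRNA_ANK, Vcam1 to Icam1 is higher, and for Nfkbia to Rela the highest control and the lowest siRNA_ANK library nearly touch.

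Of the 4 feedback genes, the inhibitors Nfkbia and Tnfaip3 rose. Nfkbia (ENSRNOG00000007390, chromosome 6, 72858712 to 72861941, minus strand) encodes IkB-alpha, which binds RelA dimers and exports them from the nucleus. It had 122, 128 and 139 counts in the controls (6.86, 7.37 and 8.68 CPM) and 183, 167 and 197 counts in siRNA_ANK (10.97, 10.003 and 12.5 CPM). Every siRNA_ANK library was above every control, and control replicate 3 came nearest to the siRNA_ANK libraries. Mean Nfkbia was 7.64 ± 0.940 CPM without and 11.1 ± 1.24 CPM with the siRNA against ANK (SD, n = 3), a 1.46-fold rise (log2 fold change 0.55 ± 0.14, SE, edgeR adjusted p = 0.00537). Relative to Rela, per kilobase, Nfkbia was at 0.124, 0.126 and 0.158 in the controls and 0.177, 0.158 and 0.190 in siRNA_ANK. By this ratio control replicate 3 and siRNA_ANK replicate 2 were level.

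Tnfaip3 (ENSRNOG00000049517, chromosome 1, 13709206 to 13725282, minus strand) encodes A20, a ubiquitin-editing enzyme that shuts down signalling upstream of IKK. It had 113, 104 and 78 counts in the controls (6.36, 5.99 and 4.87 CPM) and 197, 174 and 199 counts in siRNA_ANK (11.8, 10.4 and 12.6 CPM). The groups were well apart, and the lowest siRNA_ANK library was above 10 CPM. Mean levels were 5.74 ± 0.773 and 11.6 ± 1.10 CPM (SD, n = 3), a 2.02-fold rise (log2 fold change 1.01 ± 0.14, SE, edgeR adjusted p = 5.72e-05). Among the factors and feedback genes this was the largest change.

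Birc3 and Traf1 were not called. Birc3 (ENSRNOG00000005731, chromosome 8, 5000845 to 5015802, minus strand) encodes cIAP2, a ubiquitin ligase of the TNF receptor complex. It had 55, 78 and 58 counts in the controls and 52, 53 and 53 in siRNA_ANK. The groups overlapped, since control replicate 1 (3.09 CPM) was below the lowest siRNA_ANK library (3.12 CPM), and the log2 fold change was -0.22 with a 95% interval from -0.65 to 0.21 (edgeR adjusted p = 0.425). Traf1 (ENSRNOG00000048914, chromosome 3, 18222054 to 18241807, minus strand), an adaptor that pairs with TRAF2, had 9 to 25 counts in each library. Its interval ran from -0.77 to 0.84 around a log2 fold change of 0.03 (edgeR adjusted p = 0.952), so a change of the size of Nfkbia's was not detectable at this depth.

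Both adhesion targets rose. Vcam1 (ENSRNOG00000014333, chromosome 2, 204038114 to 204057958, minus strand) encodes the ligand of the leukocyte integrin VLA-4. It measured 263, 286 and 258 CPM across the controls, against 591, 549 and 631 CPM in siRNA_ANK. The groups were far apart, and the highest siRNA_ANK value was in replicate 3. Mean Vcam1 went from 269 ± 14.9 to 590 ± 41.0 CPM (SD, n = 3), a 2.19-fold rise (log2 fold change 1.13 ± 0.06, SE, edgeR adjusted p = 8.01e-09).

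Icam1 (ENSRNOG00000020679, chromosome 8, 19553645 to 19565438, plus strand) encodes the ligand of the beta-2 integrins of leukocytes. It measured 50.2, 50.2 and 46.4 CPM across the controls, against 76.9, 72.8 and 74.8 CPM in siRNA_ANK. Libraries of a group lay close together and the groups did not overlap, with means of 48.9 ± 2.22 and 74.8 ± 2.01 CPM (SD, n = 3). The log2 fold change was 0.61 ± 0.06 (SE, edgeR adjusted p = 3.13e-06). Per kilobase, the ratio of Vcam1 to Icam1 within a library was 3.73, 4.06 and 3.97 in the controls and 5.48, 5.37 and 6.01 in siRNA_ANK, with no overlap. Other cell types of the vessel wall can also make both molecules. The whole endothelial list (3 of 10 genes tested, 1 higher and 1 lower) summed to 15.2 to 20.5 CPM in the controls and 23.9 to 27.5 CPM in siRNA_ANK. In it Cdh5, Tie1, Emcn and Kdr were at 0. Erg rose 3.72-fold from 4.97 ± 1.09 to 18.5 ± 2.61 CPM, Egfl7 fell from 11.3 ± 1.98 to 5.99 ± 0.625 CPM and Tek was not called. Vwf had 0, 2 and 1 counts in the controls, against 4, 4 and 7. The leukocyte list (1 of 13 tested, Cd14, which fell) summed to 24.8 to 28.1 and 11.3 to 15.005 CPM. The list of adventitial fibroblast markers (8 of 9 tested, 5 higher and 1 lower) summed to 1036 to 1040 and 1097 to 1137 CPM. Most of that sum was Serpinf1, which was not called (854 ± 6.96 and 874 ± 26.3 CPM, SD, n = 3). Lum rose 2.06-fold, Scara5 3.15-fold, Dpt 1.58-fold, Dcn 1.498-fold and Pdgfra 1.25-fold, while Mfap5 fell. The part of the endothelial, leukocyte, fibroblast and smooth muscle lists in the rise of Vcam1 and Icam1 was not tested. In bulk RNA a larger share of expressing cells and more RNA per cell cannot be told apart.

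On a scale per gene length (CPM per kilobase), Vcam1 was the most abundant of the 10 in both groups. In the controls it stood at 72.9 ± 4.05, a level above that of 94.3% of the genes tested, followed by Rela at 27.7 ± 0.941, Nfkb2 at 19.1 ± 0.866, Icam1 at 18.6 ± 0.843, Nfkb1 at 15.2 ± 1.13 and Relb at 10.3 ± 0.408 (SD, n = 3). Nfkb2 and Icam1 overlapped in this order. The feedback genes were scarce, with Nfkbia at 3.77 ± 0.464, Birc3 at 1.40 ± 0.265, Tnfaip3 at 0.759 ± 0.102 and Traf1 at 0.491 ± 0.215, and the last 2 overlapped. In siRNA_ANK Vcam1 was at 160 ± 11.1, Rela at 31.4 ± 0.890 and Icam1 at 28.4 ± 0.765, with no overlap among them. Nfkb1 at 18.4 ± 0.471 and Nfkb2 at 18.2 ± 1.37 overlapped. Tnfaip3 at 1.53 ± 0.146 was above Birc3 at 1.21 ± 0.0467, the reverse of their order in the controls.

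The genes nearest to Vcam1 over the 6 libraries were Cpz, which encodes a carboxypeptidase, Matn4, a matrix protein, and Emp1, a membrane protein. Likeness was the Euclidean distance of centred log2 CPM among the 6754 genes averaging 20 CPM or more, and the distances were 0.124, 0.176 and 0.181. Cpz stood at 35.5 to 36.5 CPM across the controls, against 76.2 to 80.5 CPM in siRNA_ANK. With 2 groups and 6 libraries such likeness mostly reflects the group difference.

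The other genes of the pathway were read from 9 lists arranged by role, of which 104 genes were tested. Of these, 32 rose, 23 fell and 49 were not called, beside the 19.9% and 20.2% of all genes, and their median log2 fold change was 0.08. The rises include Il18r1, Cx3cl1, Plau and F11r, and the falls include L1cam. Each of these passed the filter on low counts only through the group where it is high. The lists were chosen with earlier results of these data known, so these shares are descriptions and not a test. Among 7 other NF-kB and IkB family genes, 3 rose and 2 fell. Nfkbiz, an inducible nuclear IkB protein, rose 1.87-fold from 9.32 ± 1.31 to 17.4 ± 1.79 CPM (edgeR adjusted p = 5.41e-05), and Nfkbie, which encodes IkB-epsilon, rose from 13.9 ± 0.728 to 18.8 ± 1.85 CPM. Nfkbib, which encodes IkB-beta, fell from 21.0 ± 2.71 to 15.6 ± 2.23 CPM, but was not called when control replicate 1 or siRNA_ANK replicate 1 was left out (edgeR adjusted p = 0.0713 and 0.0655), and its groups overlapped. Nkiras1, a small GTPase that binds IkB proteins, rose from 7.94 ± 1.26 to 11.1 ± 1.63 CPM, but was not called when control replicate 2, control replicate 3, siRNA_ANK replicate 1 or siRNA_ANK replicate 2 was left out (edgeR adjusted p = 0.0698, 0.0829, 0.0598 and 0.0955). The other gene that fell, Nkiras2, was named after its values were seen; its call (edgeR adjusted p = 0.0485) ended when any of the controls or siRNA_ANK replicate 1 or 2 was left out, with adjusted p between 0.0597 and 0.199. The number of this list that fell was 0 without replicate 1 of either group, and 1 without control replicate 2 or 3 or siRNA_ANK replicate 2.

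Of 10 kinases and partners of the IKK complex tested, 2 rose and 2 fell, a share near the 40.1% of all genes tested that were called. Map3k3 fell from 72.5 ± 2.14 to 54.8 ± 1.92 CPM and Tbk1, an IKK-related kinase, from 31.1 ± 2.82 to 23.8 ± 1.70 CPM, while Tank, a partner of TBK1, rose from 16.1 ± 1.19 to 20.9 ± 1.09 CPM. Map3k14, which encodes NIK, rose from 11.4 ± 1.69 to 14.5 ± 0.636 CPM (edgeR adjusted p = 0.0296), but not when control replicate 1, control replicate 2 or siRNA_ANK replicate 1 was left out (adjusted p = 0.121, 0.116 and 0.107), nor in DESeq2 (adjusted p = 0.0554). In each of these 4 cases Tank alone rose in this list.

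Of 18 adaptors and ubiquitin ligases, 4 rose and 1 fell, beside 19.9% higher and 20.2% lower of all genes tested. The share that rose was near that of all genes. Irak2, a kinase-like adaptor of interleukin-1 and Toll-like receptors, rose 1.84-fold from 9.49 ± 0.939 to 17.4 ± 2.05 CPM (edgeR adjusted p = 5.06e-05). Birc2 rose from 25.9 ± 1.003 to 31.2 ± 1.68 CPM, Traf5 rose from 17.1 ± 3.50 to 23.8 ± 2.67 CPM and Traf3, which restrains NIK, fell from 46.1 ± 3.54 to 39.2 ± 2.13 CPM. Xiap, named after its values were seen, rose 1.198-fold. Without siRNA_ANK replicate 1 the calls of Birc2, Traf5 and Xiap were lost (edgeR adjusted p = 0.0718, 0.0771 and 0.148), and without control replicate 3 those of Birc2, Traf5, Traf3 and Xiap (0.0667, 0.0507, 0.120 and 0.0801). Leaving out siRNA_ANK replicate 2 ended the calls of Traf5 and Traf3 (0.0517 and 0.0814) and of Xiap (0.0610), leaving out control replicate 1 those of Traf3 and Xiap (0.0792 and 0.0734), and leaving out control replicate 2 that of Xiap (0.0727). The number that rose was then 1 without control replicate 3 or siRNA_ANK replicate 1 and 2 without siRNA_ANK replicate 2, and none fell without control replicate 1.

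Of 11 other inhibitors of the pathway, none rose, 2 fell and 9 were not called. The share that fell was near the 20.2% of all genes tested that were lower, and 19.9% of all were higher. EdgeR at an unadjusted p under 0.05, DESeq2 and limma-voom gave 0 higher as well. The deubiquitinase gene Cyld fell from 53.1 ± 3.03 to 41.6 ± 3.83 CPM (edgeR adjusted p = 0.00237) and Tollip from 107 ± 4.70 to 92.7 ± 1.67 CPM. These 2 genes differ in direction from Nfkbia and Tnfaip3, but both calls were lost in the test against a fold of 1.2. Without control replicate 1 the call of Tollip was lost (edgeR adjusted p = 0.0679), which left 1 that fell. Without siRNA_ANK replicate 3 the number that rose was 1.

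Of 14 receptors that signal to NF-kB tested, 7 fell and 2 rose, beside 20.2% lower and 19.9% higher of all genes tested. The median log2 fold change of the 14 was -0.34. Among those that rose, Il18r1 passed the filter on low counts only through siRNA_ANK. Il1r1, the signalling receptor of interleukin-1, rose 1.85-fold from 32.6 ± 2.63 to 60.4 ± 2.60 CPM (edgeR adjusted p = 4.47e-07). Its coreceptor Il1rap fell from 44.3 ± 0.999 to 35.4 ± 1.35 CPM, Tnfrsf12a, the receptor of TWEAK, from 212 ± 6.92 to 142 ± 7.72 CPM and Il1rl1, the receptor of interleukin-33, from 175 ± 25.4 to 129 ± 4.33 CPM. Leaving out control replicate 3 or siRNA_ANK replicate 2 left 4 that fell. The receptor of TNF that most cells carry, Tnfrsf1a, was named after its values were seen and was not called (67.3 ± 1.71 and 73.4 ± 0.803 CPM, edgeR adjusted p = 0.0986).

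Of 11 ligands of these receptors matched, 6 (Tnf, Il1a, Il1b, Ltb, Tnfsf11 and Tnfsf14) were listed at 0 counts in each of the 6 libraries. Where such a row collects reads, the limit that a count of 0 allows is 3 counts, worth 0.169 to 0.190 CPM. Only Tnfsf12 and Hmgb1 were tested and neither was called (edgeR adjusted p = 0.438 and 0.703; 0 at an unadjusted p under 0.05, 0 by DESeq2 and 0 by limma-voom). Tnfsf12, which encodes TWEAK, stood at 18.2 ± 0.395 and 16.9 ± 1.84 CPM, and Hmgb1, whose counts are uncertain because near-identical copies can share its reads, at 3.92 ± 0.923 and 4.25 ± 0.797 CPM.

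Among secreted and enzyme targets of NF-kB, 7 of 10 tested rose and 1 fell, with a median log2 fold change of 1.01. Of all genes tested, 19.9% were higher and 20.2% lower. Cx3cl1 and Plau passed the filter on low counts only through siRNA_ANK, where they are high; of the other 8, 5 rose and 1 fell, with a median of 0.80. Cx3cl1, the chemokine fractalkine, had 10, 17 and 5 counts in the controls, against 85, 55 and 54 in siRNA_ANK; because of that filter no test is given for it. Ccl2, a monocyte chemoattractant, rose from 2.04 ± 0.399 to 5.82 ± 1.61 CPM and Il6, the cytokine interleukin-6, from 6.71 ± 0.403 to 12.03 ± 2.32 CPM. Ptgs2, which encodes cyclooxygenase-2, fell from 48.8 ± 3.79 to 28.9 ± 1.66 CPM (edgeR adjusted p = 4.01e-06), opposite to the targets that rose. Irf1 and Sod2, named after their values were seen, were not called (edgeR adjusted p = 0.287 and 0.354). Of the 14 targets not tested, 8 were listed at 0 counts in every library, among them Nos2, Ccl5 and Mmp9.

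Targets linked to cell survival and the early response moved both ways, with 7 of 15 higher and 4 lower. Of all genes tested, 19.9% were higher and 20.2% lower. Gadd45b, a stress sensor that restrains JNK signalling, rose 3.86-fold from 65.3 ± 7.23 to 252 ± 40.4 CPM (edgeR adjusted p = 1.32e-05) and Maff, a small MAF factor, from 11.8 ± 1.503 to 20.2 ± 1.84 CPM. Cflar, which encodes the caspase-8 inhibitor c-FLIP, fell from 51.5 ± 1.28 to 32.4 ± 2.81 CPM and Ninj1, a membrane protein that ruptures dying cells, from 206 ± 5.24 to 114 ± 16.2 CPM. Of 17 other adhesion molecules, 7 rose and 4 fell, beside the same 19.9% and 20.2% of all genes tested. The share that fell was near that of all genes. F11r and L1cam passed the filter only through the group where each is high, and of the other 15, 6 rose and 3 fell. Ncam1 fell from 182 ± 11.7 to 116 ± 8.73 CPM and Cd44, the hyaluronan receptor, from 285 ± 4.91 to 197 ± 15.1 CPM, whereas Thy1 and Jam3 rose 1.28-fold each. The selectin genes Sele and Selp did not pass the filter on low counts.

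**Figure D4:**
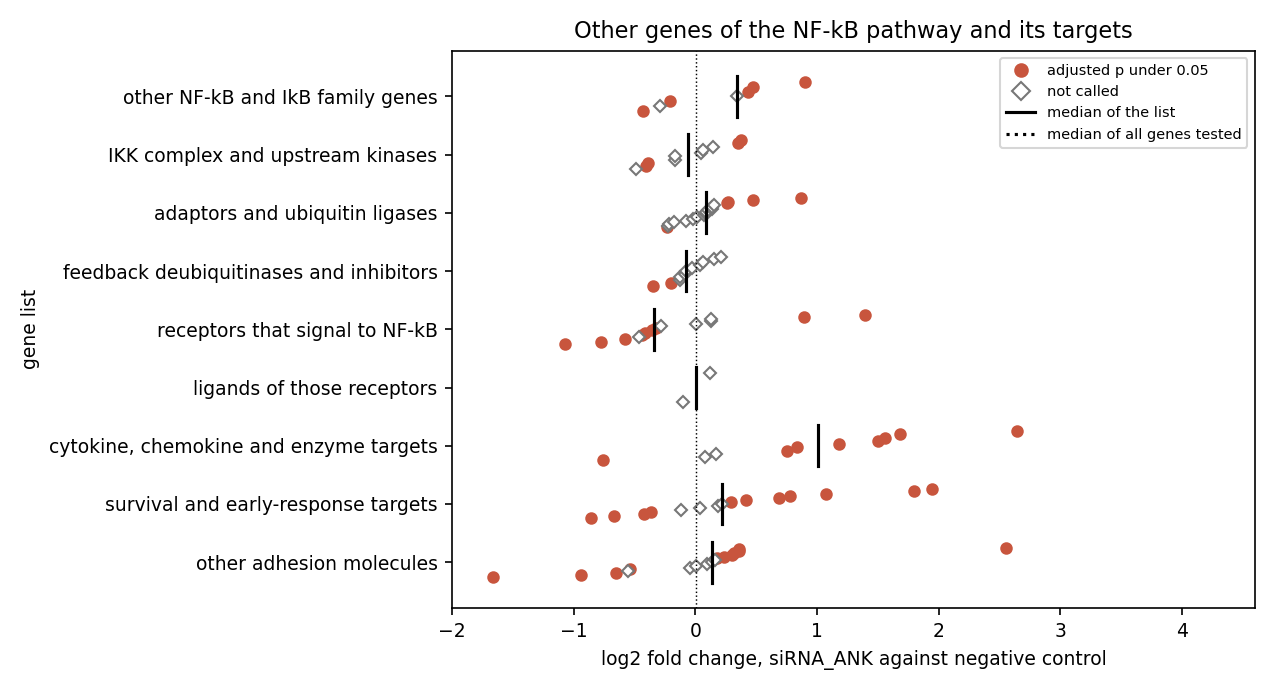
Log2 fold change of the tested genes of 9 pathway lists, 1 point per gene; filled circles passed an adjusted p of 0.05 (edgeR), black bars are list medians and the dotted line is the median of all genes tested. The secreted and enzyme targets have the highest median (1.01) and the receptors the lowest (-0.34). Without genes that passed the filter on low counts only through the group where they are high, these medians are 0.80 and -0.36.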

How the data were processed

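Total RNA of 6 libraries was counted per gene. The deposited files hold raw counts per gene, not normalized, made by the authors with featureCounts 1.5.0-p3 on build mRatBN7.2, per the submitters' processing notes, which also name DESeq2. For aligner and strand setting the sources used here say nothing. Without strand, overlapping genes cannot be told apart, although none of the 10 genes overlaps another annotated gene. Rows with no Ensembl identifier held 0.306% to 0.339% of the counts.

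Counts were tested with edgeR 4.0.16 in R 4.3.3: filterByExpr (minimum count 10, minimum total count 15), TMM factors of 0.979 to 1.02, robust quasi-likelihood test, two-sided, no covariate, Benjamini-Hochberg adjustment over 13016 genes. The SE is the log2 fold change over the square root of F. CPM are TMM-scaled; CPM per kilobase use the deposited gene length. An exact permutation test of 3 against 3 cannot go below 0.1, so none is given. Chi-square per degree of freedom between libraries of a group was 2.83 to 12.3, so none were duplicates. The steps were tested on simulated data. Intervals and floors of 3 counts cover counting error or library spread only.

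The members and lists were chosen with earlier results of these data known. Of 155 list entries, 145 were matched and 104 tested; the others were not analysed here. Named by rule were all 10 members, Ankh, the genes nearest to Vcam1 and the 2 most abundant genes of a marker list. Per pathway list the rule took the called genes of lowest adjusted p, at most 4. With none called it took the 2 most abundant per length. All other named genes, among them most of the marker genes, were chosen after their values were seen. Alternatives were DESeq2 1.42.0, limma-voom (limma 3.58.1), DESeq2 size factors, upper quartile scaling, no filter beyond 1 count, a mean of 5 CPM, a test against a fold of 1.2, leaving out libraries, and a replicate block.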

Additional observations from a re-analysis of the deposited data

How the results depend on the processing

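Vcam1, Icam1, Tnfaip3 and Nfkbia kept their direction and call under all 15 alternatives, with log2 fold changes of 1.08 to 1.18, 0.57 to 0.63, 0.91 to 1.09 and 0.44 to 0.64. Nfkb1 was called under 14 (0.24 to 0.36) and Rela under 11 (0.15 to 0.20); Nfkb2, Relb, Birc3 and Traf1 were called under none. The number of the 10 genes that rose was 4 in the test against a fold of 1.2, where Nfkb1 and Rela were not called (adjusted p = 0.469 and 1), and 5 to 6 without 1 library. That test called 1335 higher and 1142 lower genes in all, and 16 and 11 in the lists: 1 and 0 of the NF-kB and IkB family, 0 and 1 of the IKK list, 1 and 0 of the adaptors, 0 lower inhibitors, 3 lower receptors, 2 lower survival targets and 1 higher adhesion gene. DESeq2, upper quartile scaling and the filter at a mean of 5 CPM each left 1 lower family gene, DESeq2 left 1 higher IKK gene, and that filter left 3 higher secreted targets and 2 lower adhesion genes, with fewer genes tested. Without negative control replicate 2 and siRNA_ANK replicate 3 together, 4 IKK genes and 4 inhibitors were lower and 2 inhibitors higher. Without 1 library the lower family genes were 0 to 2, the IKK genes 1 to 3 higher, the adaptors 1 to 4 higher and 0 to 1 lower, the inhibitors 0 to 1 higher and 1 to 3 lower, and the lower receptors 4 to 8. The cause of the other differences was not tested.

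Replicate numbers are shared between the groups, but same-numbered libraries did not deviate together (correlations of -0.03, 0.06 and 0.04). With the replicate number as a block, 6 of the 10 genes rose and 0 fell, with 2579 genes higher and 2631 lower in all. Depth limits Traf1 most, whose 9 to 25 counts per library left a 95% interval from -0.77 to 0.84, and Birc3 next, with 52 to 78 counts.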

Other observations

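The remaining secreted targets called higher were named after their values were seen. Csf1, the growth factor of macrophages, had 305, 403 and 281 counts in the controls and 1066, 1108 and 642 in siRNA_ANK (19.3 ± 3.38 and 57.0 ± 14.2 CPM, SD, n = 3, edgeR adjusted p = 0.00226), and siRNA_ANK replicate 3 was the lowest of its group. Plau, which encodes urokinase, had 7, 7 and 3 counts in the controls, against 15, 17 and 21, and passed the filter on low counts only through siRNA_ANK, so no test is given. Ccl7, a chemokine, rose from 1.15 ± 0.515 to 2.62 ± 0.242 CPM. Lif, a cytokine of the interleukin-6 family, rose from 25.03 ± 4.74 to 42.4 ± 10.6 CPM (edgeR adjusted p = 0.0320), but was not called when control replicate 1, control replicate 3 or siRNA_ANK replicate 1 was left out (adjusted p = 0.0846, 0.0613 and 0.0608), nor with the replicate number as a block (adjusted p = 0.168) or with no filter beyond 1 count (adjusted p = 0.113).

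Among receptors and adhesion genes outside the naming rule, the second TNF receptor gene Tnfrsf1b fell 2.11-fold from 6.30 ± 1.27 to 2.99 ± 0.997 CPM (n = 3, edgeR adjusted p = 0.00213), and Il18r1, a receptor of interleukin-18, had 17, 12 and 8 counts in the controls, against 31, 39 and 24. Icam5, a relative of Icam1, moved the other way from it, from 3.61 ± 0.880 to 1.88 ± 0.329 CPM (log2 fold change -0.94 ± 0.25, SE, edgeR adjusted p = 0.00801), while L1cam had 26, 21 and 23 counts in the controls, against 6, 6 and 9. F11r, a junctional adhesion molecule, had 3, 7 and 5 counts, against 25, 48 and 14. Il18r1, F11r and L1cam passed the filter only through the group where each is high, so no test is given.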
